A study of Mus musculus with 469 samples.

Results

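The neurons described here were olfactory sensory neurons that expressed the OMP-eGFP reporter in an epithelium that had received a transplant, set beside neurons of the uninjured mouse olfactory epithelium. They were chosen by measured values: 1000 to 10000 genes with a value of 1 or more, an Omp level of 500 CPM or more (CPM is a gene's share of its library's summed signal, scaled to 1000000), and less than 5000 CPM summed over Cyp2g1, Cyp2a5, Cyp1a2, Ermn, Cbr2, Sec14l3 and Ugt2a1, genes of the sustentacular supporting cell. This kept 17 of the 89 engrafted libraries and 39 reference libraries, out of 96 in each of 2 runs. The 56 members made up 11.9% of the libraries of the series, whose other groups were 50 libraries of OMP-eGFP cells and 61, 51 and 26 of Neurog1-eGFP cells. Every level of Omp and of the 7 sustentacular genes is therefore a description of the choice and not a finding.

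Each library held the polyadenylated RNA of a cell captured with the Fluidigm C1 system, which isolates cells 1 by 1 in a microfluidic chip. The engrafted neurons carried the genotype OMP-eGFP+ on the strain B6 OMP-eGFP and were sorted for eGFP from epithelium sampled after transplantation. The reference neurons came from unsorted epithelium of wildtype B6;129SF1/J (F1) hybrids in 2 runs, with 26 of the 39 members from run 1 and 13 from run 2. All animals were 8 weeks old by the labels. Another sort from B6 OMP-eGFP mice, 14 days after olfactory bulbectomy (removal of the bulb, the target of these neurons), gave 25 of 50 libraries under the same limits, and its values are set beside the others. The sources used here name neither the donor cells, the host nor the interval after transplantation, and no animal. Each group was thus 1 sample: no test was possible and differences have no replicate check. Strain, sort, transplantation and sex, which the labels do not give, cannot be told apart.

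Olfactory sensory neurons are replaced throughout life from basal cells of the epithelium. A mature neuron expresses Omp, carries the odorant receptor in cilia, and signals through a G protein, adenylyl cyclase and a channel gated by cyclic nucleotides. It transcribes a single odorant receptor allele. Its position matters, because dorsal and ventral zones of the epithelium hold neurons with different receptors, different adhesion and guidance molecules and different targets in the bulb.

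In the engrafted group 60 libraries had too few genes and 12 more had too little Omp, and none was lost to the sustentacular limit. Of the reference, 53 libraries had too few genes, 9 had too many, 42 had too little Omp and 49 had too much sustentacular RNA. The engrafted member with the least Omp had 706 CPM and the nearest library outside had 143.1. In the reference the highest sustentacular sum inside the limit was 4959 CPM and the nearest outside was 5354. The mature neuron label was also read on other genes, at 10 CPM or more. The channel subunit Cnga2 and the stomatin family protein Stoml3 were found in 17 of 17 engrafted libraries. They were found in 32 and 38 of 39 reference libraries. The adenylyl cyclase Adcy3 was found in 11 of 17 engrafted libraries. Some members carried more RNA of immature than of mature neuron genes, by lists described below. The engrafted member with the least Omp had 16145 CPM of immature against 1743 CPM of mature genes. The run 1 reference member with the lowest mature sum had 21888 against 1687 CPM. Depth, recovered as fragments per library, was 13463, 502926 and 1410990 (lowest, median, highest) for the engrafted neurons and 64902, 474023 and 1685610 for the reference. Numbers of genes had medians of 2661 and 2066, and of 2084.5 and 1524 after thinning to 50000 fragments, which left out the shallowest engrafted library.

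Sustentacular genes that took no part in the choice summed to 0, 0 and 411.8 CPM (lowest, median, highest) in the engrafted neurons and to 0, 216.7 and 12146 CPM in the reference, so the groups overlapped. Of 6 such genes measured 5 were 2-fold lower, 3 of them by every view, and Ezr was 2-fold higher, found in 1 of 17 and 1 of 39 neurons. The 7 genes that set the choice summed, as a description of it, to 0, 0.00684 and 49.4 CPM against 26.8, 688 and 4959 CPM. Among 7970 genes with a mean of 10 CPM or more in either group, 26.5% were 2-fold higher and 38.1% were 2-fold lower in the engrafted neurons, on a log2 ratio of mean CPM + 1 that understates low genes. Against run 1 alone 32.4% were higher and 36.7% lower, and against run 2 alone the order turned, with 37.6% higher and 31.4% lower. The 2 reference runs differed from each other in more genes, 42.1% of 7605 being 2-fold higher in run 1 and 31.4% 2-fold lower. A stricter count asked for 2-fold in 4 views: against the whole reference, against each run, and without the highest library of each group. By every view, 12.5% of the 7970 genes were higher and 14.8% were lower, and gene lists are read against these shares. From medians over libraries in place of means, only 1168 genes could be compared, and 63.2% of them were 2-fold higher and 11.5% were 2-fold lower.

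Markers of position in the epithelium are described first. Acsm4, an acyl-CoA synthetase of dorsal neurons, and Nqo1, a quinone reductase of the same zone, were seldom found in engrafted neurons. Ncam2, an adhesion molecule (also called OCAM) of ventral neurons, was found there more often. Promoters of the 3 genes are shown because their RNA divided the neurons, as the 250 bases before the start in RefSeq (build GRCm38.p6). Both strands were searched for TCCC and GGGA separated by any 2 bases, the palindrome bound by early B cell factors, and for TAATTA, a homeodomain core, which do not overlap each other, and a match is in capitals.
Acsm4, chr7:119689776-119690025, plus strand: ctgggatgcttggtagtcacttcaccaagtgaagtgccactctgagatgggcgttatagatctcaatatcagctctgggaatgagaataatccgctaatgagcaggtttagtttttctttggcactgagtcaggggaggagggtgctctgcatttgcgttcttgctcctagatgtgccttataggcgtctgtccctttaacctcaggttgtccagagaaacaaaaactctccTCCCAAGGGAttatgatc
Nqo1, chr8:107403206-107403455, minus strand: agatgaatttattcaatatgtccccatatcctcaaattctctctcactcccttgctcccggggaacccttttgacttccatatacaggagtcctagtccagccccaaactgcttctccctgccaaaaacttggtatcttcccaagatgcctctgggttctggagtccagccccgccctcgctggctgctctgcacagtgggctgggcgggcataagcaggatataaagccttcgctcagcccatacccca
Ncam2, chr16:81200447-81200696, plus strand: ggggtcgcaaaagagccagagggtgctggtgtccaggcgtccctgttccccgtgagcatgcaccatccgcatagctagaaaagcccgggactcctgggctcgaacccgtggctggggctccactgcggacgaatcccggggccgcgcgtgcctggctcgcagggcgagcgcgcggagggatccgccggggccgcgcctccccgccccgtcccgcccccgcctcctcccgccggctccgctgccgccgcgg
The Acsm4 window held 1 match to the palindrome and the other two held none, while TAATTA was in none of them. Of 32851 promoter windows of this length, 0.779% held the first motif and 4.84% the second. A match is a string of letters and not a measured binding site.

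Acsm4 or Nqo1 reached 10 CPM in 3 of 17 engrafted neurons (17.6%, exact Clopper-Pearson 95% interval 3.80 to 43.4) and in 31 of 39 reference neurons (79.5%, 63.5 to 90.7). The reference share was alike in its runs, 21 of 26 and 10 of 13. Acsm4 was listed at 0 in 14 of 17 engrafted neurons, and in the reference it was at 0, 38 and 3260 CPM (lowest, median, highest). Nqo1 stood at 0, 0 and 4030 CPM in the engrafted neurons, against 0, 589 and 10295 CPM. The 3 engrafted neurons with these genes were not low: their Nqo1 was 1186, 3678 and 4030 CPM. The groups differed in how many neurons carried the RNA, and the levels of those that did overlapped. Intervals cover the counting of libraries only, and without molecular identifiers the amplified copies of a molecule cannot be separated.

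Ncam2 showed the opposite order, in 8 of 17 engrafted neurons (47.1%, 22.98 to 72.2) and 4 of 39 reference neurons (10.3%, 2.87 to 24.2), and these intervals overlap slightly. Its 8 engrafted values ran from 95.1 to 1664 CPM, while the highest reference neuron had 289.4 CPM. No engrafted neuron had both kinds of marker: 3 had a dorsal marker, 8 had Ncam2 and 6 had neither. In the reference 2 had both, 29 a dorsal marker alone, 2 Ncam2 alone and 6 neither. The OMP-eGFP sort 14 days after bulbectomy lay between, with a dorsal marker in 13 of 25 and Ncam2 in 11 of 25. Where the reference was limited to 24 neurons with under 1000 CPM of sustentacular RNA, the share with Acsm4 or Nqo1 was 75.0%.

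**Figure D1:**
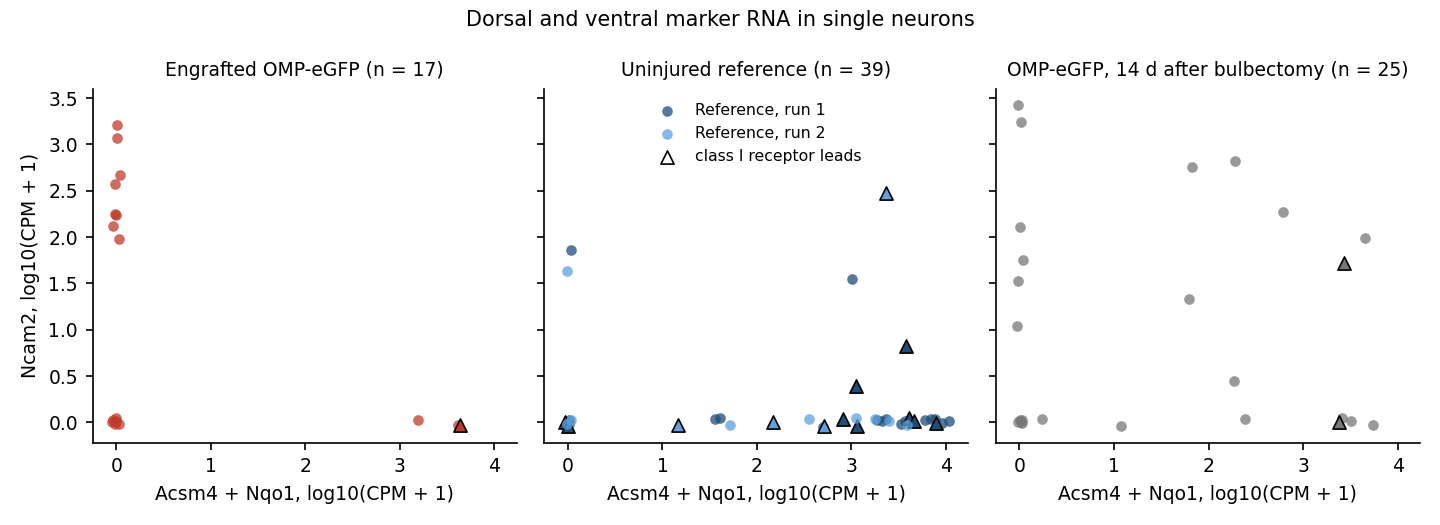
Each point is a library, placed by the summed level of Acsm4 and Nqo1 (x axis) and the level of Ncam2 (y axis), both as log10(CPM + 1) with a slight jitter, and triangles mark libraries led by a class I odorant receptor. Engrafted neurons lie on the y axis or at the origin except for 3, while 31 of 39 reference neurons lie to the right.

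Other genes of the zone list were counted with these. Of 6 measured members 4 were higher by every view (Robo2, Nrp2, Ncam2, Nfix) and 1 was lower (Acsm4). These are shares of 66.7% and 16.7%, against 12.5% and 14.8% of all genes. The guidance receptor Nrp2, known from ventral axons, had a mean of 26.8 CPM against 1.35 and was found in 3 of 17 and 2 of 39 neurons. Robo2, a Slit receptor known from dorsal axons, had a higher mean (613 against 214.96 CPM) yet was found in 5 of 17 engrafted and 17 of 39 reference neurons, so its mean rested on few libraries. Nfix, a nuclear factor I transcription factor, averaged 38.96 against 10 CPM, and its relative Nfia averaged 306.2 against 47.6 CPM. Nfia was found in 11 of 17 engrafted neurons (64.7%, 38.3 to 85.8) and 9 of 39 reference neurons (23.1%, 11.1 to 39.3).

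Odorant receptors follow, as each neuron is expected to carry 1. A leading receptor of 50 CPM or more was present in 16 of 17 engrafted and 39 of 39 reference neurons. The leading receptors were 16 different genes in the engrafted neurons and 32 in the reference, with 0 in common, among 1116 receptor entries. With so few neurons among so many receptor genes, the lack of overlap is not read as a difference. Their levels overlapped, at 113.4, 8401 and 33878 CPM (lowest, median, highest) against 148.6, 5221 and 96883 CPM. The leading receptor made up a median of 99.7% of all receptor RNA in the engrafted neurons and 93.6% in the reference. The reference runs were unlike, with median shares of 98.4% in run 1 and 70.8% in run 2. Their median leading levels were 9359 and 3169 CPM. Receptor genes have near-identical relatives, and Olfr1372-ps1, which led 1 engrafted library, is named as a pseudogene, so reads may have been split between copies.

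Exactly 1 receptor at 50 CPM or more was found in 11 of 17 engrafted neurons (64.7%, 38.3 to 85.8) and 13 of 39 reference neurons (33.3%, 19.1 to 50.2). The runs of the reference were unlike: 13 of 26 in run 1 (50%, 29.9 to 70.1) and 0 of 13 in run 2, which allows up to 24.7%. The engrafted share thus lay within the interval of run 1. In the sort 14 days after bulbectomy 5 of 25 neurons had 1 receptor. After thinning to 50000 fragments the counts were 12 of 16 engrafted, 13 of 26 in run 1 and 0 of 13 in run 2. Sustentacular RNA was higher in run 2 (median 1032 CPM) than in run 1 (312.1 CPM), and its part in the receptor counts was not tested.

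**Figure D2:**
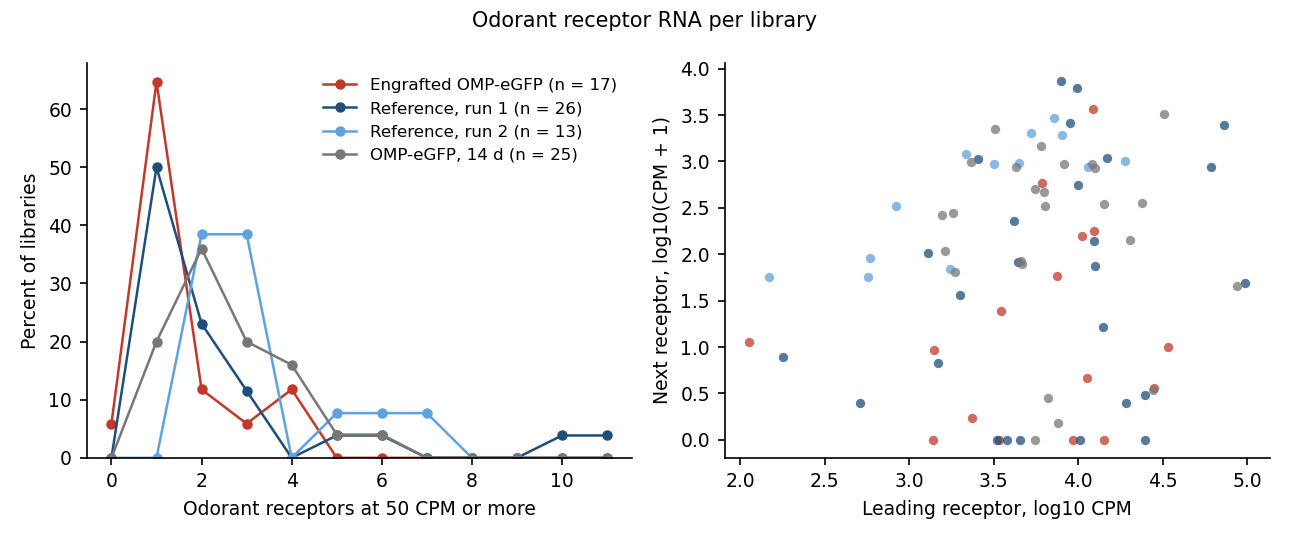
Left, the percent of libraries (y axis) by the number of odorant receptors at 50 CPM or more (x axis). Right, each library by its leading receptor (log10 CPM) and its next receptor (log10(CPM + 1)), in the same colours. Engrafted and run 1 neurons peak at 1 receptor, and run 2 neurons start at 2.

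Class I receptors, the fish-like family used mostly by dorsal neurons, sit in a single cluster on chromosome 7. The class was set by gene order in the reference annotation after the values had been seen. It held 11.1% of the 1116 entries. A class I receptor led in 1 of 16 engrafted neurons (6.25%, 0.158 to 30.2), 13 of 39 reference neurons (33.3%, 19.1 to 50.2) and 2 of 25 neurons 14 days after bulbectomy. The intervals of the first pair overlap. The engrafted neuron was led by Olfr667 (3413 CPM) and was 1 of the 3 with Acsm4 and Nqo1. In the reference 11 of the 13 had Acsm4 or Nqo1.

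Few mature neuron genes differed 2-fold between the groups, but the list includes Omp, on which both groups were chosen. Likeness on this list is thus partly set by the choice. Of 11 measured members of that list, 0 were called by every view, and 1, the calcium-binding S100a5, was 2-fold lower (2895 against 7358 CPM). Of all genes, 12.5% were higher and 14.8% lower by every view. The summed level was 1743, 23115 and 63935 CPM (lowest, median, highest) in the engrafted neurons and 1256, 28269 and 62677 CPM in the reference. The reference runs lay on either side, with medians of 40984 and 12047 CPM. Gnal, the olfactory G protein alpha subunit, had medians of 6288 and 5457 CPM, and Adcy3, the adenylyl cyclase of the cilia, had 78.2 and 110 CPM. The receptor chaperone Rtp1 was found in 17 of 17 engrafted and 28 of 39 reference neurons, with medians of 830 and 215.7 CPM. Over all genes the median log2 ratio was −0.32, and that of the mature list was also −0.32. The list's value changed sign with the reference run, from −0.73 against run 1 to 0.80 against run 2. All genes stood at −0.08 and 0.29. The mature list took the other sign in 5 of 18 alternatives.

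Of 19 measured genes of odorant signalling, 0 were higher and 1 was lower (5.26%, against 14.8% of all genes) by every view. This was Slc24a4, the exchanger that clears calcium after a response, listed at 0 in the engrafted neurons and found in 3 of 39 reference neurons. The list summed to medians of 62678 and 54966 CPM, with 62496 CPM in reference run 1 and 34371 CPM in run 2. Its median log2 ratio was −0.59 against run 1 and 0.59 against run 2. Intraflagellar transport and BBSome genes, which build and supply the cilium, had 0 higher and 4 lower (Ift27, Ift140, Bbs5, Arl13b) of 30 measured by every view. That is a share of 13.3%, near that of all genes. The list's median log2 ratio changed sign with the reference run, from −0.89 against run 1 to 0.81 against run 2.

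**Figure D3:**
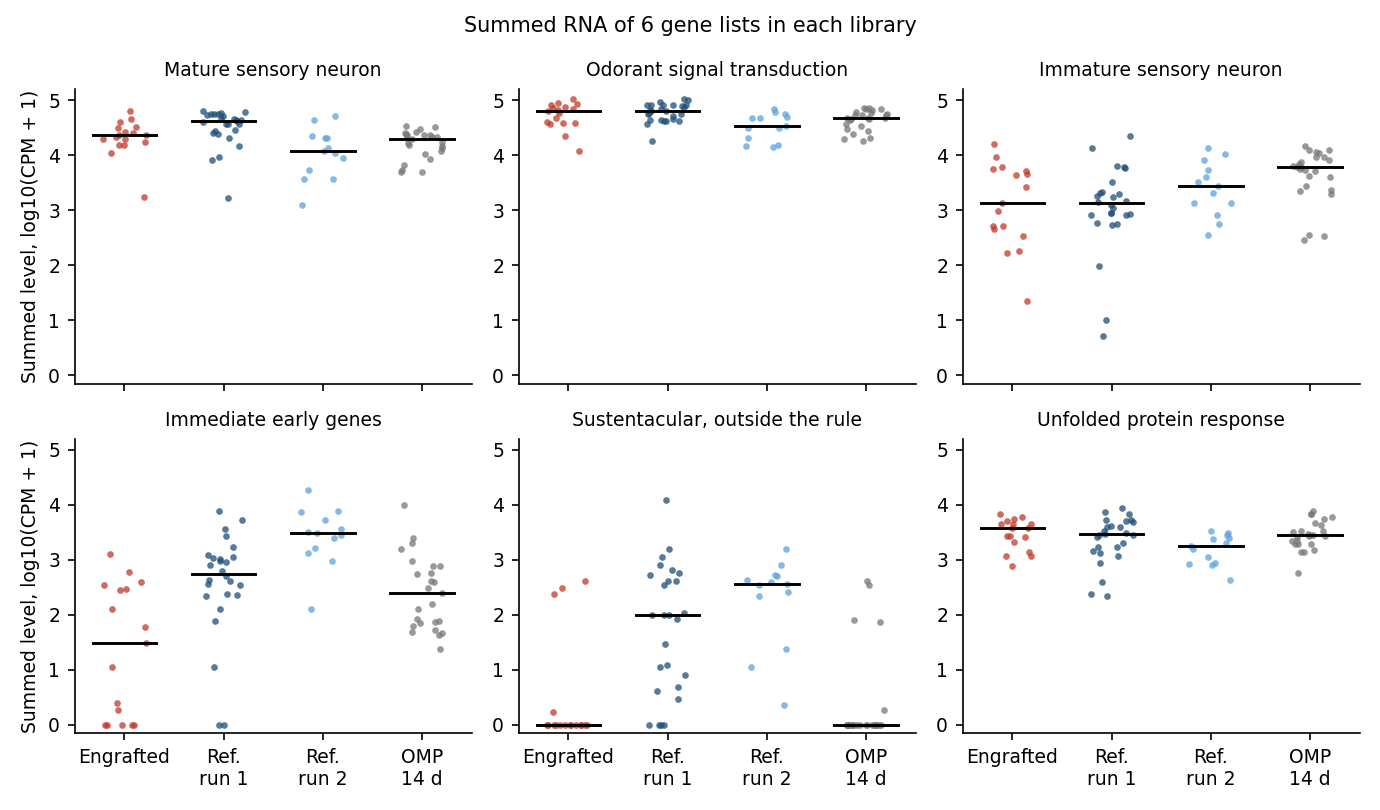
Summed levels of 6 gene lists, as log10(CPM + 1) on the y axis, with a point per library and the median as a line. Mature and signalling lists overlap in all 4 sets of libraries, while most engrafted libraries lie low for immediate early genes and at 0 for sustentacular genes. The mature list includes Omp, on which all sets were chosen.

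Genes of immature neurons, the stage before Omp is reached, were read next. Of 13 measured, 0 were higher and 3 were lower by every view: Dpysl3 and Dpysl5, collapsin response mediators, and Basp1, a growth cone protein. The share lower was 23.1%, against 14.8% of all genes. The growth cone gene Gap43 was found in 4 of 17 engrafted neurons (23.5%, 6.81 to 49.9), 10 of 39 reference neurons (25.6%, 13.04 to 42.1) and 21 of 25 neurons 14 days after bulbectomy. Summed levels of the list were 21.3, 1354 and 16145 CPM in the engrafted neurons, 4.22, 1475 and 21888 in the reference, and 291.4, 6012 and 14544 after bulbectomy. The engrafted sums therefore overlapped those of the reference, whose runs had medians of 1327 and 2795 CPM. The engrafted median lay below that of the other OMP-eGFP sort. The ranges of the 2 sorts overlapped, and the highest engrafted sum was above the highest after bulbectomy.

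Immediate early genes, transcribed within minutes of activity or stress, were lower in engrafted neurons. Of 12 measured, 7 were lower by every view (Fos, Fosb, Jun, Egr1, Ier2, Atf3, Btg2) and 0 were higher. The share lower was 58.3%, against 14.8% of all genes. Fos, part of the AP-1 factor, was found in 1 of 17 engrafted neurons (5.88%, 0.149 to 28.7), at 222.2 CPM, and in 23 of 39 reference neurons (58.97%, 42.1 to 74.4) with a highest level of 8430 CPM. Egr1, a zinc finger factor, was listed at 0 in all 17 engrafted neurons, for which the exact 95% interval reaches 19.5%, and found in 19 of 39 reference neurons. Jun, the partner of Fos, was found in 4 of 17 and 25 of 39 neurons. Group sums were 0, 29.8 and 1287 CPM against 0, 1017 and 18535 CPM.

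The size of this difference varied with the reference run. Summed immediate early RNA had a median of 555 CPM in run 1 and 3031 CPM in run 2, and Fos was found in 10 of 26 and 13 of 13 neurons. The sort 14 days after bulbectomy had a median of 251.9 CPM, with Fos in 5 and Jun in 24 of 25 neurons. The median log2 ratio of the list was −4.43, or −4.07 with the 6 members listed at 0 in engrafted neurons set to 3 fragments over the group. With the reference limited to under 1000 CPM of sustentacular RNA it was −4.37.

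Chaperones and stress genes were mixed. Of 11 measured heat shock genes 3 were lower by every view (Hspa1b, Hsph1, Hspd1) and 0 were higher. The share lower was 27.3%, against 14.8% of all genes. The inducible chaperone Hspa1b was listed at 0 in the engrafted neurons and found in 4 of 39 reference neurons. Genes of the unfolded protein response, which also acts in receptor choice, had 3 higher (Atf6, Herpud1, Dnajc3) and 0 lower of 17 by every view, and 4 higher and 3 lower against the whole reference alone. The median log2 ratio of the list was 0.24, and it took the other sign in 6 of 18 alternatives. Herpud1, a factor of protein degradation in the endoplasmic reticulum, averaged 665 against 114.9 CPM and was found in 10 of 17 and 15 of 39 neurons. Its level after bulbectomy was 519 CPM. The share called higher in that list, 17.6%, was above the 12.5% of all genes by less than 1 gene of the list.

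Of 25 measured genes of axon guidance and sorting, 5 were higher by every view (Nrp2, Robo2, Kirrel3, Pcdh17, Ncam2) and 4 were lower (Plxna1, Sema7a, Epha7, Robo1). These are shares of 20% and 16%, near the 12.5% and 14.8% of all genes. Kirrel3, an adhesion molecule that sorts axons by activity, was found in 7 of 17 engrafted neurons and 5 of 39 reference neurons, with means of 95.2 and 7.28 CPM. Its partner in sorting, Kirrel2, averaged 207.9 and 500 CPM and was not called by every view. The protocadherin Pcdh17 reached a highest level of 7999 CPM in the engrafted and 3328 CPM in the reference neurons, with means of 994 and 195.1 CPM. Plxna1, a semaphorin receptor, was found in 4 of 17 and 19 of 39 neurons. Sema7a, a membrane semaphorin of sensory axons, was listed at 0 in the engrafted neurons and found in 3 of 39 reference neurons.

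**Figure D4:**
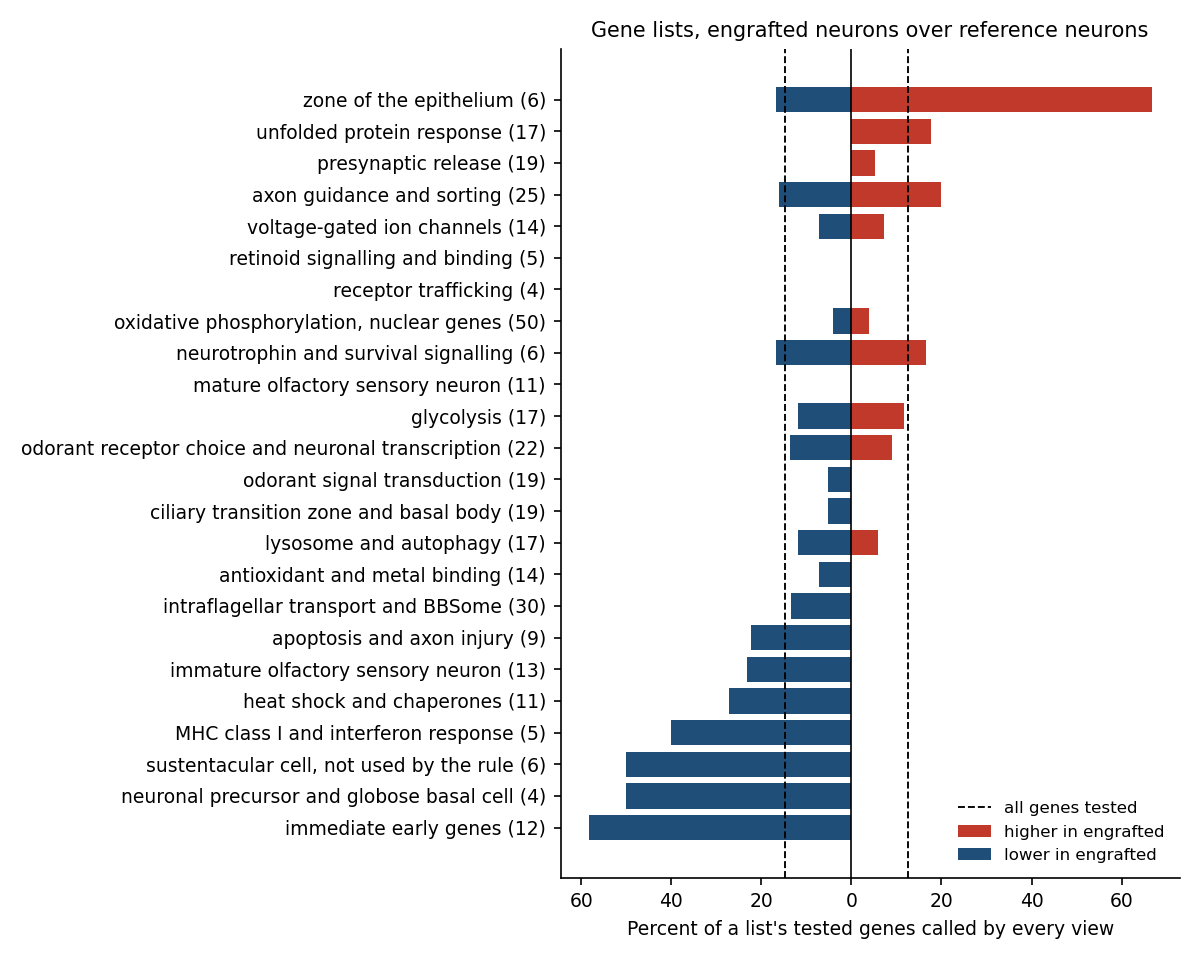
Percent of each list's measured genes (number in brackets) that were 2-fold higher (right) or lower (left) in engrafted neurons by every view, with dashed lines at 12.5% and 14.8%, the shares of all genes. Immediate early genes have 7 of 12 lower, and the zone list has 4 of 6 higher.

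Of 22 genes of receptor choice and neuronal transcription, 2 were higher by every view (Nfia, Nfix) and 3 were lower. Among the lower genes were Kdm1a, a histone demethylase needed for receptor choice, and Smarca4, a chromatin remodeller. The homeodomain factor Lhx2 was found in 14 of 17 and 28 of 39 neurons, with means of 283.2 and 221.4 CPM. Ebf2, an early B cell factor, had medians of 2986 and 1517 CPM. These are shares of 9.09% and 13.6%, near those of all genes. Nuclear genes of oxidative phosphorylation had 2 higher (Atp5e, Atp5k) and 2 lower (Ndufv1, Uqcrc1) of 50, and glycolysis had 2 higher (Eno1, Eno2) and 2 lower (Tpi1, Pgam1) of 17. Shares each way were 4% and 11.8% for these lists, below the 12.5% higher and 14.8% lower of all genes.

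Single genes were named by a rule on level, on the share of libraries and on all views. Of 180 genes that passed on level and share as higher, 19 also had share intervals that did not overlap, and the 12 with the greatest ratios included Sbk1, Trrap, Mns1, Nedd9, Tusc2, Rhoq, Ppfia2, Tex9, Rdh13, Znrf3 and Fbxo9. Znrf3, a ubiquitin ligase that removes Wnt receptors, was at 0, 267.8 and 2333 CPM in the engrafted neurons and at 0, 0 and 809 CPM in the reference. It was found in 11 of 17 neurons (64.7%, 38.3 to 85.8) and 6 of 39 (15.4%, 5.86 to 30.5). The share 14 days after bulbectomy was 10 of 25.

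Rdh13, a mitochondrial retinol dehydrogenase, was at 0, 183.7 and 2003 CPM against 0, 0 and 352.4 CPM, and in 11 of 17 against 7 of 39 neurons. Rhoq, a small GTPase, had 0, 74.3 and 4329 CPM against 0, 0 and 1302 CPM. It was found in 10 of 17 engrafted, 6 of 39 reference and 20 of 25 bulbectomy neurons. Ppfia2, the presynaptic scaffold liprin-alpha-2, was found in 11, 8 and 18 of these neurons, with means of 319.1, 25.8 and 113.2 CPM. Mns1, a protein of motile cilia and flagella, was in 7 of 17 and 1 of 39 neurons, and in 8 of 25 after bulbectomy. The log2 ratios of the 12 genes ran from 3.03 for Fbxo9 to 6.25 for Sbk1. The ratio of Sbk1, a kinase gene, rested on the shallowest engrafted library and was 4.52 without it, and those of Trrap and Tex9 went from 3.88 and 3.44 to 3.17 and 2.64. After thinning to 50000 fragments, which leaves that library out, the share intervals of Sbk1, Trrap, Tusc2 and Fbxo9 overlapped between the groups, with Sbk1 in 3 of 16 and 1 of 39 neurons.

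**Figure D5:**
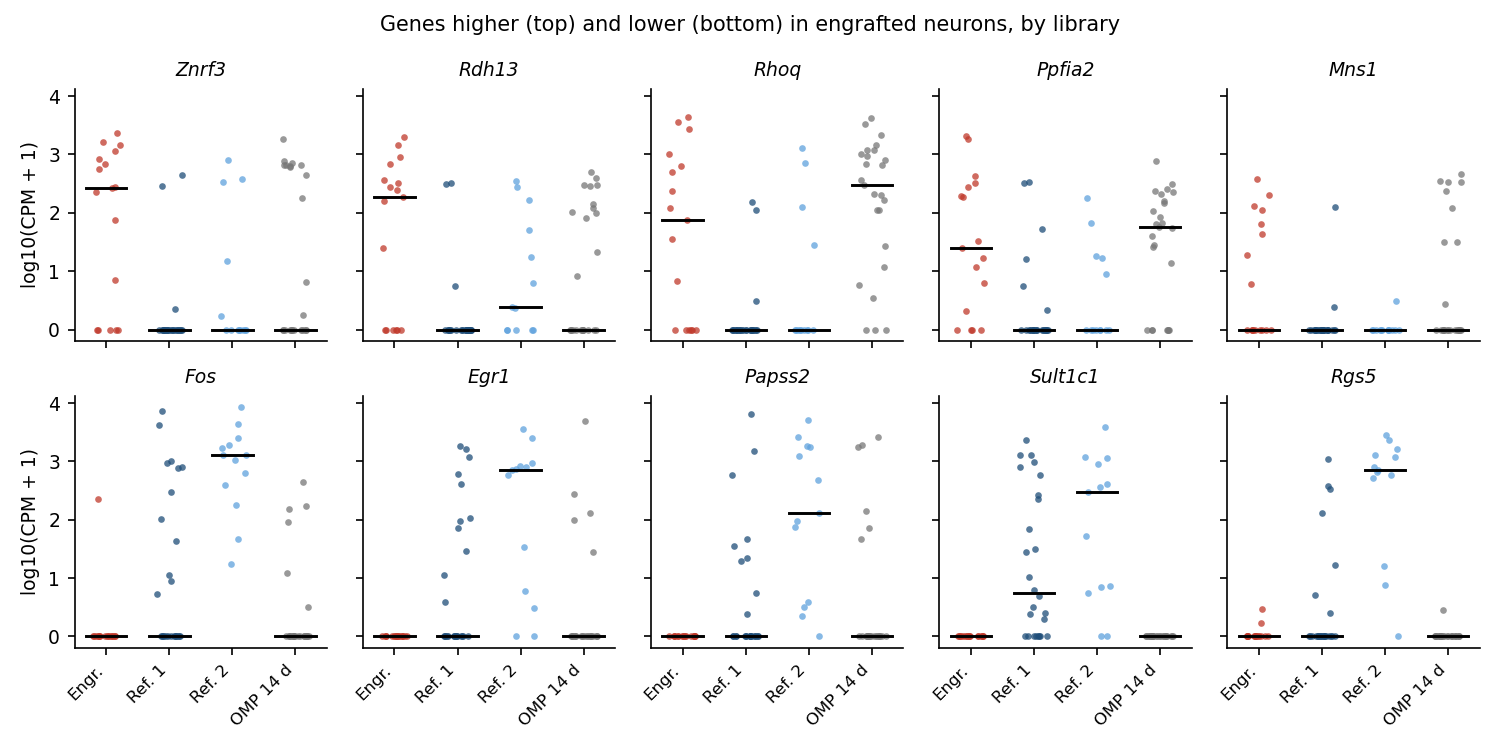
Levels of 10 named genes as log10(CPM + 1) on the y axis, with a point per library and the median as a line. The 5 genes in the top row have more engrafted than reference libraries above 0, and the 5 in the bottom row are at 0 in nearly all engrafted libraries.

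In the other direction 68 genes passed on level and share and 9 of them had separate intervals. That condition was therefore dropped, and the 12 named were Xist, Papss2, Egr1, Cyp2f2, Sult1c1, Rgs5, Tsix, Fos, Dennd1a, Capza2, Numa1 and Acsm4. Papss2, which makes the sulfate donor, and the sulfotransferase Sult1c1 were both listed at 0 in all engrafted neurons. They were found in 16 and 19 of 39 reference neurons, with highest levels of 6392 and 3896 CPM. Cyp2f2, a cytochrome P450 of supporting cells, was likewise at 0, against 19 of 39 neurons and a highest level of 12119.5 CPM. After bulbectomy, in neurons that were sorted too, Sult1c1 was found in 0 and Cyp2f2 in 1 of 25. Papss2 was found in several of those neurons, at up to 2582 CPM. The part of the sort in these genes was not tested.

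Rgs5, a regulator of G protein signalling used as a pericyte marker, reached at most 1.99 CPM in engrafted neurons and was found in 16 of 39 reference neurons. Of those 5 were among 26 of run 1 and 11 among 13 of run 2. Capza2, an actin capping subunit, was found in 3 of 17 and 17 of 39 neurons. Numa1, a spindle pole protein, was in 3 of 17 and 16 of 39, and Dennd1a, an endocytic exchange factor, in 3 of 17 and 17 of 39. The ratio of Dennd1a turned to 0.19 (log2) with members taken from an Omp level of 100 CPM. The median of sustentacular RNA was higher in the reference, as given above, and its part in these genes was not tested.

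Xist, the RNA that silences an X chromosome in females, was listed at 0 in 17 of 17 engrafted neurons, with an exact 95% interval that reaches 19.5%, and found in 24 of 39 reference neurons (61.5%, 44.6 to 76.6). Tsix is its antisense partner, so their reads cannot be told apart without strand. A Y-linked gene (Ddx3y, Eif2s3y, Kdm5d or Uty) was found in 7 of 17 engrafted and 0 of 39 reference neurons. After bulbectomy 23 of 25 neurons had Xist and 0 had a Y-linked gene. The labels give no sex, and the sex-linked difference cannot be told apart from transplantation.

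Markers of other cell types were mostly low in both groups. Median sums were 0 in each for the cell types given here, except the respiratory multiciliated cell. That list, which includes Sec14l3 of the choice, had medians of 0 in the engrafted neurons and 143.5 CPM in the reference. Immune and horizontal basal cell markers were listed at 0 in all 17 engrafted neurons, and reached 4976 and 412.3 CPM in the reference. Endothelial and pericyte markers summed to at most 33.4 CPM, against 2811 CPM in the reference. Their reference medians were 0 in run 1 and 699.8 CPM in run 2. Bowman gland markers reached 229.9 and 665.6 CPM. Precursor markers had a highest sum of 284.5 CPM against 9694 CPM in the reference, whose median was 0. Microvillar cell genes, with the medians of both groups at 0, reached 385.5 and 17254 CPM, and Coch, the member behind most of this, was found in 1 of 17, 8 of 39 and 16 of 25 neurons. Class I MHC and interferon genes, of interest after grafting, had 0 higher and 2 lower (H2-D1 among them) of 5 measured by every view. B2m, the class I light chain, was found in 5 of 17 and 4 of 39 neurons, with means of 35.6 and 37.9 CPM.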

How the data were processed

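Estimated fragments per gene and FPKM values were deposited by the authors as 2 tables of 23308 gene entries. The first holds signal that the authors had scaled to nearly equal library sums (483147 to 651792), as seen from the values, and the second holds FPKM values per the file headers. The submitters' processing notes list STAR 2.5.2a, Cuffnorm, FastQC and Cufflinks 2.2.1 and the build mm9, without their roles. Which gene annotation was counted is not given in the sources used here. Since the scaling removed depth, fragments per library were recovered as whole multiples of a smallest step (tolerance 0.02), which held for 97.4% to 99.7% of the values of each library used. Such scaling leaves shallow libraries with coarse levels: in the shallowest, a CPM of 10 is below 1 fragment.

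From these, CPM of the library sum was computed with Python 3.11.15, numpy 2.4.6 and pandas 2.3.3, and intervals with scipy 1.17.1. The 27 entries whose names had turned into dates (0.418% of the signal) were left out. Groups came from the labels, and no 2 member libraries were identical. A gene was found in a library at 10 CPM or more, and compared if its mean reached 10 CPM in either group. Differences are log2 ratios of mean CPM + 1. No count test was run, since each group is 1 sample. Doublets were not called, and the limits on genes and sustentacular RNA stood in for it. Named genes were the 12 highest and 12 lowest ratios among those called by every view, with a mean of 50 CPM or more, a share of 40% or more and, for the higher genes, separate share intervals, leaving out receptors and unnamed transcripts. The text also draws on 36 lists with 537 genes, of which 8 were missing from the tables. The members and lists were chosen with earlier results of these data known. The recovery of fragments and the 2-fold calls were tested on simulated data with known steps and folds. Some genes that met these rules are not reported here.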

Additional observations from a re-analysis of the deposited data

How the results depend on the processing

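Alternatives covered the pseudocount, the level filter, the limits of the choice, the reference run, the highest library, the median over libraries, centring, the FPKM table, thinning, equal weight to both runs and the shallowest library; the last pair was chosen after seeing the data. Shares of neurons with Acsm4 or Nqo1, with Ncam2 or led by a class I receptor were also taken at a detection of 1 and 50 CPM and over neurons with 1 receptor (chosen after seeing the data), and kept within their intervals in all 66 recalculations.

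Counts of genes depended on the settings, and are given with their percent of the genes compared. Against 2109 genes 2-fold higher (26.5%) there were 1180 (26.5%) with a mean of 50 CPM or more, 1190 (22.3%) without the highest library of each group and 738 (63.2%) from medians. Against 3039 lower (38.1%) there were 1473 (33.03%) at 50 CPM and 11.5% of 1168 from medians. By every view, 996 higher (12.5%) became 603 (7.57%) with a pseudocount of 10, 619 (13.9%) at 50 CPM and 170 (14.6%) from medians. The 1179 lower (14.8%) became 635 (7.97%), 614 (13.8%) and 43 (3.68%), and 669 (12.5%) without the highest library. Every-view counts have no value for a single run. The cause of these shifts was not tested beyond the fewer genes that a filter at 50 CPM or a median leaves.

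Of the list medians of 2-fold or more, 7 recalculations turned sign: the Bowman gland list with Omp of 2000 CPM or more (0.30), the zone list at 50 CPM (−0.21) and from medians (−7.24), the Y-linked and Xist list from medians (−7.24), and the retinoid list against run 2 (3.62), without the highest library (0.89) and with sustentacular RNA under 1000 CPM (4.34). Dennd1a turned with Omp of 100 CPM or more (0.19). Medians of the 18 lists under 2-fold took the other sign in 46 recalculations, spread over 17 of those lists. Without a turn of a 2-fold value, 21.6% of the list medians and 65 ratios of named genes (15.05%) moved by more than the reference runs differ, among them 14 of 18 for the unfolded protein response, 12 for MHC and interferon genes, 9 for Dennd1a and 8 for Sbk1. The cause was not tested. No paired analysis was possible because each group is 1 sample and the labels pair no libraries. Depth limits the absence of a gene in the shallowest engrafted library.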

Other observations

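The engrafted sort also held libraries outside the choice. In 12 libraries with 1262 to 3665 genes Omp was under 500 CPM, and it reached 10 CPM in 5 of them. Gap43, the growth cone gene, was found in 8 of these 12 libraries (median 219.2 CPM), against 4 of the 17 chosen neurons. The immature marker Gng8 was found in 5 of 12 and 1 of 17 libraries. An odorant receptor at 50 CPM or more was present in 9 of the 12. Sustentacular Cyp2g1 was found in 3 and Krt8 in 4 of them, and Rgs5 in 3 with a highest level of 229486 CPM. Sp8, a zinc finger factor, had a mean of 2105 CPM in the 12 libraries and was at 0 in the 17 chosen neurons. Sp8 and the comparison were chosen after the values were seen. Among the 60 engrafted libraries with fewer than 1000 genes (median 86.5), Omp was found in 14 and an odorant receptor in 26.

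Secreted proteins of the nasal airway were found in few engrafted neurons. Bpifa1, a secreted protein of airway glands, was found in 3 of 17 neurons with a highest level of 3862 CPM, and in 2 of 39 reference neurons with a highest level of 30.8 CPM. The 3862 CPM was in the shallowest engrafted library. In every other engrafted library the whole list of secreted proteins summed to at most 295.6 CPM. Genes carried by 1 or 2 libraries can pass the fold in every view: Eno2, the neuronal enolase, was found in 2 of 17 engrafted and 0 of 39 reference neurons, and the cytokine receptor subunit Il6st likewise in 2 and 0.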
